A study of Arabidopsis thaliana with 8 samples.

Results

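The high tiles of the TB plates are 593 of the 21285 measured tiles of a chromosome 4 tiling array, and 593 of the 9456 measured tiles on TB plates. They were chosen on the values themselves: a tile whose name starts with TB and whose log2 ratio stood more than 1.5 (2.83-fold) above the median tile of the array in each of 4 replicates. The level, the count and the run structure that follow from this choice are therefore a description, given without a test. The array was hybridised with input DNA in 1 channel and, in the other, with DNA from chromatin immunoprecipitation (IP) for H3K4me2, histone H3 that carries 2 methyl groups on lysine 4. The chromatin came from whole 10-day-old seedlings of Col-0, the accession of Arabidopsis thaliana behind the reference genome. The seedlings were grown in liquid medium and received no treatment, and the labels name no genotype beyond the strain. There is 1 group of 4 replicates, each a dye swap on 2 arrays, and no second condition.

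Methylation of lysine 4 on histone H3 is laid down by SET-domain methyltransferases, among them the trithorax-like ATX proteins in Arabidopsis, and is removed by LSD1-like and JmjC demethylases. In plant chromatin the dimethylated form lies over genes, whether they are strongly transcribed or not, most of all towards the start of the gene. It is scarce over the silenced, repeat-rich chromatin of centromere flanks and of the heterochromatic knob of chromosome 4. A map of the mark by tiles therefore tends to consist of local maxima over gene-rich DNA. The values here allow only the shape of maxima along the order of the wells to be described.

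Neither the order of the channels in the ratio nor its log base is stated. The base was taken as log2 from the values, and high means high in the deposited sign. If the ratio were input over IP, the same 593 tiles would be the low ones, with the same counts. Tiles are known here by plate set, plate number and well only (TB65A08 is set TB, plate 65, row A, column 8). No genome position, gene or sequence was at hand for them, so distances are in wells, counted along the rows and on to the next plate number. Whether wells next to each other hold neighbouring stretches of the genome is thus not known here. Whole seedlings mix many cell types, so a tile marked in fewer cells and a tile marked less in every cell cannot be told apart. The replicates are not evenly related. The array titles carry pairs of numbers whose meaning is not stated. Replicates 1 and 2 share the second number at each dye orientation, as do replicates 3 and 4, and these are called number pairs here. The IP chromatin of replicates 2, 3 and 4 carries the same seedling batch label. Precision is limited by the number of arrays, and p-values measure the spread between these replicates, which may be technical.

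Across all plates, 976 tiles (4.59%) were above the limit in all 4 replicates, against 6.27% of the TB tiles. Most of the 593 stood only a little above it. Their mean level over the 4 replicates was below 2 for 363 tiles (61.2%), between 2 and 2.5 for 189, between 2.5 and 3 for 33, and at least 3 for 8. The median member had 1.85 in replicate 1, 1.99 in replicate 2, 1.94 in replicate 3 and 1.92 in replicate 4. The replicates were close to each other for the typical member, with replicate 1 the lowest. Replicate 1 also gave the lowest of the 4 values for 224 of the 593 members, against 91, 124 and 154 for replicates 2, 3 and 4. The SD of a member over the replicates had a median of 0.16, and of the other TB tiles 0.20. The first of these is narrowed by the choice, since a tile with 1 value under the limit is left out.

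The highest tile was TB65A08, with 4.73, 4.64, 4.63 and 4.67 in replicates 1 to 4, a mean of 4.67 ± 0.04 (SD, n = 4), which is 25.5-fold over the median tile. It stood alone: the well before it, TB65A07, had a mean of 1.31 and the well after it, TB65A09, a mean of 0.10. Tile TB26C04 followed with 3.96, 3.99, 4.12 and 3.70. It was also single, with -0.06 before it and 0.72 after it. The 4 values of TB65A08 were above every value of the other 9, while those of TB26C04 overlapped with TB58E02, which reached 3.85 in replicate 4.

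Plate TB58 held the third and the fourth of the highest tiles. TB58E02 had 3.53, 3.40, 3.20 and 3.85, a mean of 3.49 ± 0.27, between neighbours at 1.23 and -0.55. TB58C12 had 3.68, 3.26, 3.63 and 3.30, a mean of 3.47 ± 0.22, between neighbours at 1.01 and -1.38. Both had a lower well after them than before them. These tiles did not differ beyond their spread over replicates, and their order is not settled.

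The 6 next tiles spanned means from 3.39 to 2.95. TB37C08 had 3.54, 3.24, 3.63 and 3.15. TB85C11 had 3.43, 3.31, 3.35 and 3.35, with the smallest spread of the 6, an SD of 0.05. TB66F04 had 2.98, 3.69, 2.94 and 3.42, with the largest, an SD of 0.36. In TB66F04, replicates 2 and 4 were both above replicates 1 and 3, and in TB37C08 the order of these pairs was the opposite. TB66F04 was the only high tile on its plate and stood next to a low one, TB66F03, at -1.74.

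TB25F09 had 2.90, 3.25, 2.86 and 3.05. It was the only one of the 10 highest to lie in a run, with TB25F10 at 2.08 after it. TB79B05 had 3.07, 2.83, 2.97 and 3.08, and TB53E01 had 3.13, 2.87, 3.11 and 2.71. The well before TB53E01, TB53D12, had a mean of 1.76 and was no member, since at least 1 of its replicates was at or under the limit. So 9 of the 10 highest tiles were single wells.

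**Figure D1:**
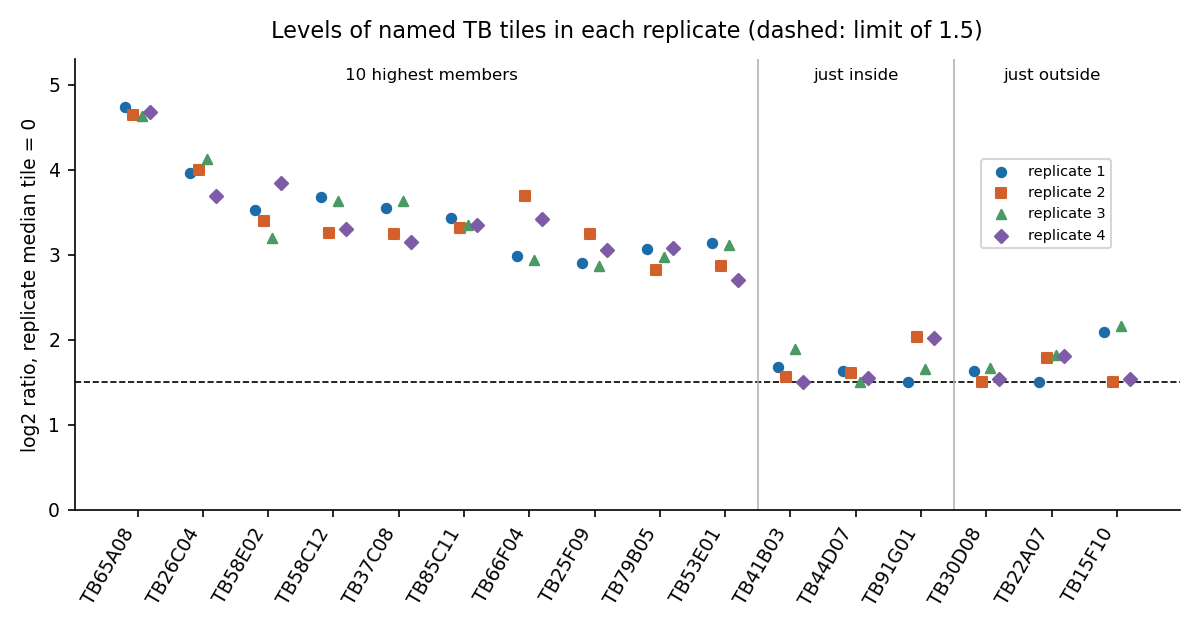
Log2 ratios of 16 TB tiles in each replicate, with the median tile of the replicate at 0: the 10 members with the highest mean, and the 3 tiles nearest to the limit of 1.5 (dashed) on either side. TB65A08 lies between 4.63 and 4.73 in all 4 replicates, while the tiles on both sides of the limit overlap in their other replicates.

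The limit cuts through a continuous range. The members just inside it were TB41B03, TB44D07 and TB91G01, whose lowest replicates were 1.5020, 1.5023 and 1.5025. The tiles just outside were TB30D08, TB22A07 and TB15F10, whose lowest replicates were 1.4999, 1.4996 and 1.4995. The means of the first 3 were 1.66, 1.57 and 1.80, and those of the last 3 were 1.58, 1.73 and 1.82, so the groups overlap and nothing separates them but 1 value each. Of the TB tiles, 272 were above the limit in 3 replicates, 548 in 2 and 455 in 1, and 7588 in none.

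Which replicates a near miss passed in was not even. Of the 548 tiles above the limit in exactly 2 replicates, 291 were above it in replicates 2 and 4 and 182 in replicates 1 and 3. The other pairs held fewer, with 52 tiles for replicates 2 and 3, 11 for 1 and 2, 9 for 3 and 4, and 3 for 1 and 4. The same pairs show within the members. Over the 593 tiles, replicate 2 correlated with replicate 4 at 0.91, and replicate 1 with replicate 3 at 0.88. The remaining pairs had 0.64 to 0.69. Over the other TB tiles, which cover a wider range, the values were 0.98, 0.97 and 0.88 to 0.89. These correlations are across tiles of the same arrays and are given as a description. For a member, replicates 1 and 3 minus replicates 2 and 4 ranged from -1.04 to 0.75, with a median of -0.05. The source of this split was not tested.

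Between the number pairs, replicates 1 and 2 minus 3 and 4, the members differed by -0.41 to 0.42, with a median of -0.01. In limma's moderated test of that difference, 0 of the 593 members passed an adjusted p of 0.05 and 0 had an unadjusted p under 0.05. Over all tiles 0 (0%) passed and 28 had an unadjusted p under 0.05. Each number pair holds 1 of replicates 1 and 3 and 1 of replicates 2 and 4. The split between those thus adds to the spread within a pair, against which the test measures. On simulated data of this size, with replicates drawn independently, the same comparison recovered 0 of 100 tiles changed 4-fold. For both reasons these counts do not show that the number pairs were alike.

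Reading each replicate with members chosen on the other 3 gives the level in a sample that the choice did not use. Without replicate 1, 705 tiles were chosen, and 593 of them (84.1%) were above the limit in replicate 1, where their median was 1.78. The values for replicates 2, 3 and 4 were 94.9% of 625, 92.7% of 640 and 88.0% of 674, with medians of 1.97, 1.90 and 1.86. The share of all TB tiles above the limit in the single replicates was 10.6%, 14.1%, 13.1% and 12.3%. All tiles chosen in this way were above the median tile in the replicate left out, the lowest at 0.39. The replicates are not independent of each other, as the pairs above show, so a replicate left out has a close relative among those that chose.

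The 593 members formed 478 runs of consecutive wells, and most runs were a single well. There were 384 runs of 1 well, which hold 64.8% of the members, 76 of 2 wells, 15 of 3 and 3 of 4. The mean length was 1.24 wells, and no run was longer than 4 or passed from one plate to the next. With 1 well that was no member allowed inside a run, there were 438 runs with a mean of 1.45 wells and a longest of 5. In the order of the wells, the runs on TB plates are thus short at this limit, and their width in the genome is not known.

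The runs of 4 wells were TB78C11 to TB78D02, TB80E02 to TB80E05 and TB20C03 to TB20C06. They were not the highest. The first had means of 1.83, 1.66, 2.07 and 2.10, with 1.44 in the well before and 1.06 in the well after. The second had 2.07, 1.86, 2.07 and 1.71. It began sharply, since TB80E01 before it had -0.02, -0.63, -0.21 and -0.46 in replicates 1 to 4, while TB80E06 after it had 0.92, 1.38, 1.27 and 1.06. The third had 1.80, 1.80, 1.75 and 1.99, and the well before it, TB20C02, missed the limit in replicate 4 alone, at 1.43. Of the 15 runs of 3 wells, 7 had their highest tile in the middle, and 8 at an end.

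Runs of 2 and of 3 wells had a higher median peak than single wells, and the 3 runs of 4 did not continue this rise. The highest tile of a run had a median of 1.91 in runs of 1 well, 2.09 in runs of 2, 2.22 in runs of 3 and 2.07 in the 3 runs of 4. A run of several wells has more tiles from which its highest is taken, so this order is a description. The single-well runs covered the widest range, from 1.53 to 4.67, and runs of 3 lay between 1.99 and 2.81.

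**Figure D2:**
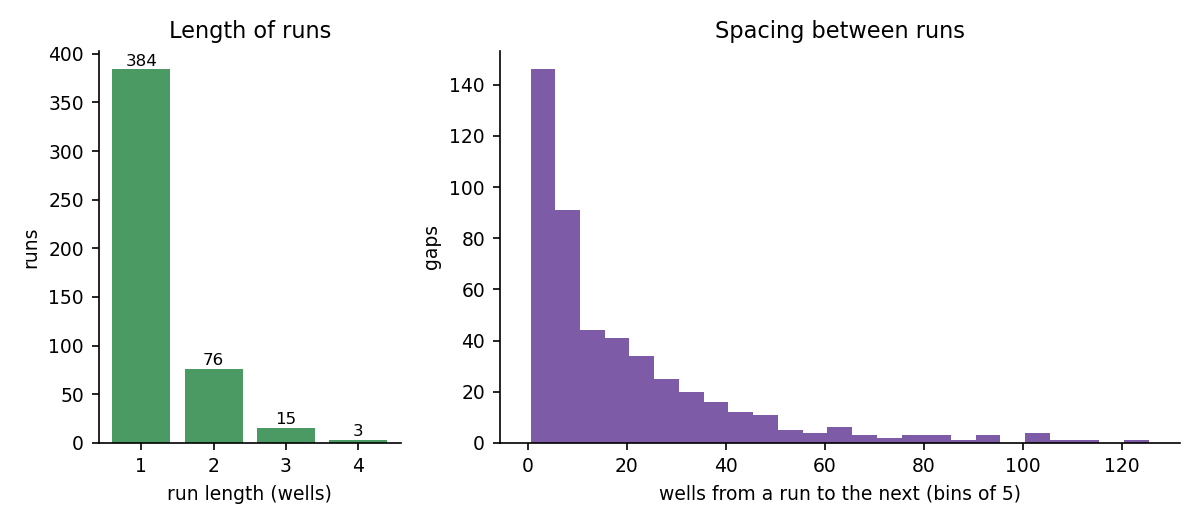
Left, the number of runs of high TB tiles by length in wells. Right, the number of gaps by the wells between a run and the next, in bins of 5 wells. Of 478 runs, 384 are single wells, and 146 of the 477 gaps are 5 wells or less.

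The spacing between runs varied widely. It was not compared with runs placed at random, which also vary in spacing, so it is given as a description. The gap from a run to the next had a median of 11 wells, with quartiles at 5 and 26, a mean of 18.9 and a maximum of 125. Of the 477 gaps, 40 were a single well and 146 (30.6%) were 5 wells or less. At the other end, 7 gaps were longer than a whole plate of 96 wells. The longest ran from TB87C12 to TB88F06; it was named after its value was seen.

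Members had other members close by along the rows, most of all in the next well. The next measured well after a member was itself a member in 115 of 588 cases (19.6%), against the 6.27% of all TB tiles. At 2 wells the share was 10.4%, at 3 wells 8.38% and at 5 wells 5.97%. From 6 to 48 wells it varied between 5.15% and 9.95%. It was above 6.27% at most of these distances, with 9.57% at 34 wells and 8.95% at 48 wells. A smaller excess thus reached beyond the nearest wells. At 96 wells, the same well on the next plate, the share was 4.12%. Counted down the columns, the next well was a member in 7.77% of cases. The share of 18.4% at 8 wells in that order is mostly the neighbour in the same row again, since a column has 8 wells. The order along the rows is thus the one in which high tiles lie side by side.

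**Figure D3:**
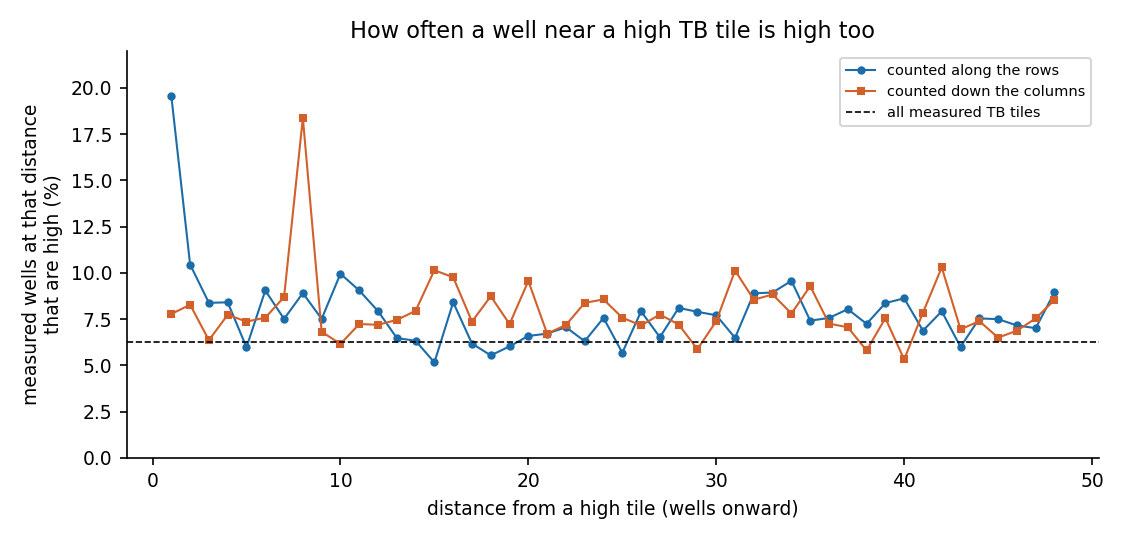
Share of measured wells that are high (percent) against their distance in wells after a high TB tile, counted along the rows (circles) or down the columns (squares); the dashed line is the share of all measured TB tiles, 6.27%. Along the rows the first well stands out at 19.6%.

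The wells around a run were higher than TB wells far from any run, and the level dropped off within about 3 wells. Wells that were no members and lay next to a run had a median of 0.96, 1.13, 1.08 and 1.07 in replicates 1 to 4, a mean of 1.06 ± 0.07 (SD, n = 4) over 903 wells. At 2 wells it was 0.65 ± 0.08, at 3 wells 0.48 ± 0.04 and at 4 wells 0.47 ± 0.03. The 4121 TB wells more than 8 wells from any run, none of them members, had 0.10 ± 0.01. The median of all TB tiles, members included, was 0.45, 0.50, 0.50 and 0.48 in replicates 1 to 4. All 4 replicates showed the same order of these steps from 1 to 3 wells.

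A second, slower decline followed. From 5 to 10 wells the median stayed between 0.33 and 0.42, still above the far wells but under the median of all TB tiles. At 13 wells it was 0.08. A well can be that far from the nearest run only in a long gap, so the far end of the curve rests on the emptier stretches, with 241 wells at 13. The difference from the far wells was 0.95 ± 0.08 at 1 well, 0.38 ± 0.05 at 3 wells and 0.30 ± 0.01 at 8 wells, positive in 4 of 4 replicates at each distance from 1 to 8. The exact two-sided sign-flip permutation test over 4 replicates gave p = 0.125 at each of these distances, the smallest it allows (0.227 after Benjamini-Hochberg adjustment over the 20 such tests made here), so it cannot reach 0.05. Near and far wells are both defined by their distance from tiles chosen on these same values. The sign at all of these distances is thus partly set by the choice, and by how much was not tested.

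**Figure D4:**
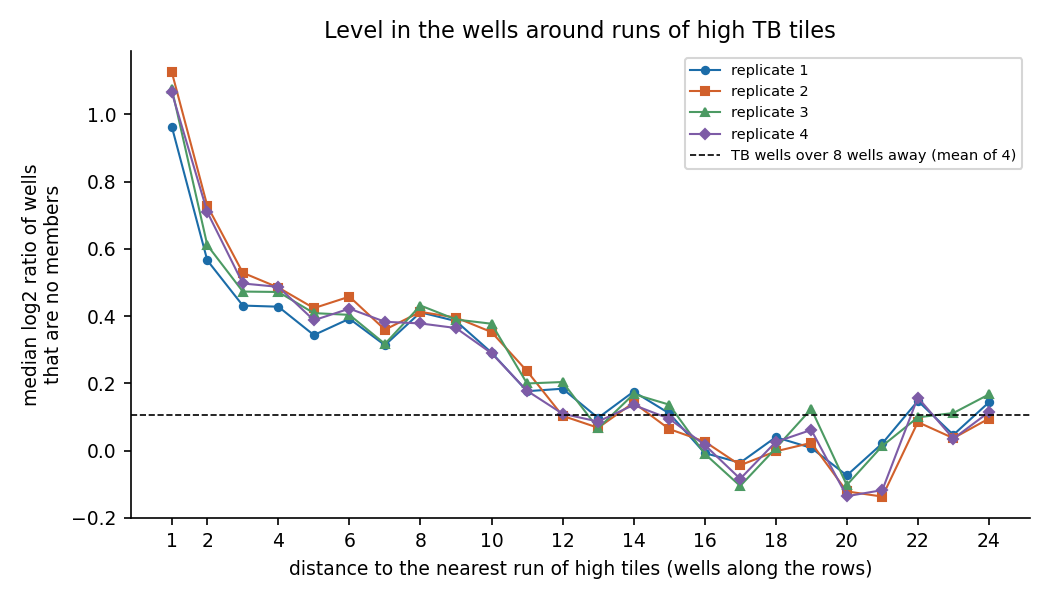
Median log2 ratio of TB wells that are no members against their distance in wells to the nearest run of high tiles, 1 line per replicate. The dashed line at 0.10 is the mean over replicates of the median of all TB wells more than 8 wells away, which include the wells plotted beyond 8. The lines start between 0.96 and 1.13 and are at 0.43 to 0.53 by 3 wells.

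Tested tile by tile, most flanking wells were above the median tile. In limma, fitted on all 21285 tiles with Benjamini-Hochberg adjustment, 769 of the 903 wells beside a run (85.2%) were above at an adjusted p under 0.05 and 56 (6.20%) below. Over all tiles 42.1% were called above and 41.9% below, and over the 8863 TB tiles that are no members 53.5% and 27.3%. At 2 wells 65.1% of 773 were called above. At 3 wells it was 55.1% of 675, near the share of the TB tiles that are no members. Among the far TB wells it was 43.4% of 4121, close to the share of all tiles. All 593 members were called above, which the rule ensures. With the values as deposited, 422 of the 903 were above 0, and 19.3% of all tiles. The fit took the replicates as independent, while their correlations described above show that they are not. The adjusted p-values may thus be too small and the shares called too high. The block tried as an alternative was on the number pairs, which cut across the closely correlated replicates, so it does not account for this.

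The median level was similar in the wells before and after a run. The well before a run had a median of 1.08 ± 0.07 and the well after it 1.07 ± 0.08, over the 467 runs with both measured. The rule treats both sides alike, so this difference is independent of it. Within the same run, before minus after had a median of 0.03 ± 0.02 (SD, n = 4), positive in 3 of 4 replicates, with p = 0.25 in the exact sign-flip test (0.385 adjusted). At 2 to 8 wells it lay between -0.05 and 0.02, with exact p-values from 0.25 to 1. At 9, 10 and 11 wells it was 0.06 ± 0.04, 0.06 ± 0.03 and 0.11 ± 0.10, positive in 4 of 4 replicates and not tested. In the runs of 3 or 4 wells it was 0.37 ± 0.11, with p = 0.125, the smallest the exact test allows. These p-values do not show that the sides were alike.

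The flanks were of similar height beside runs of 1, 2 and 3 wells. The median was 1.07 ± 0.08 beside single-well runs, 1.04 ± 0.04 beside runs of 2 wells, 1.05 ± 0.07 beside runs of 3 and 1.25 ± 0.13 over the 6 wells beside runs of 4. Across the 467 runs, the height of the peak and the mean of its neighbours had a Pearson correlation of -0.17 and a Spearman correlation of -0.09. Among single-well runs, the highest 25% (94 runs, median height 2.29) had flanks with a median of 0.95, and the lowest 25% (94 runs, median height 1.68) flanks of 1.08. A neighbour above the limit in all 4 replicates would have joined the run. The level of a flank was thus capped whatever the height of the peak, and these comparisons are partly set by the choice.

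Few runs stood wholly alone in low surroundings. In 350 of the 467 runs (74.9%) both neighbouring wells were above the median tile in all 4 replicates, a sign that 43% of all single tiles and 54.9% of the other TB tiles showed. In 58 runs exactly 1 neighbour was below the median tile in all 4 replicates, and in 3 both were. Below in all 4 replicates were 43.2% of all tiles and 29.1% of the other TB tiles. These shares are of single tiles, above and below, and the shares for 2 wells at once were not counted. The 3 runs, named after their values were seen, were TB37H09, TB40E11 and the run from TB16H01 to TB16H03. TB37H09, at a mean of 2.02, stood between wells at -2.57 and -0.22. TB40E11, at 2.22, stood between -0.81 and -0.60.

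Every one of the 100 TB plates held at least 1 member. The number per plate ranged from 1 to 17, with a median of 5, quartiles at 3 and 8 and a mean of 5.93. The plates with the most were TB84 with 17 of 95 measured tiles, TB83 with 16 of 95, and TB06 and TB16 with 15 each. Of the plates, 7 held 1, among them the neighbours TB32, TB33 and TB34. The variance over plates was 2.54 times the mean. The 18 plates with 10 or more members held 228 of the 593.

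Plates rich in members lay partly in a stretch and partly alone. TB06 with 15 members lay between plates with 3 and 4, TB16 with 15 also between 3 and 4, and TB26 with 14 between 3 and 6. Plates TB80 to TB84 each held between 12 and 17 members, 73 of 474 tiles in all (15.4%), or 12.3% of the members; the stretch was singled out after its values were seen. Its other tiles were higher too, with medians of 0.71, 0.78, 0.78 and 0.74 in replicates 1 to 4, against 0.35, 0.38, 0.39 and 0.37 for the other tiles of the remaining plates. Without these 5 plates the share of members was 5.79%. Across the 99 pairs of consecutive plates, the numbers of members had a Pearson correlation of 0.31 and a Spearman correlation of 0.24. Across the 100 plates, the number of members and the median of the plate's other tiles had 0.54 and 0.56. Both are descriptions over tiles of the same 4 replicates, and the medians of the plates' other tiles ranged from -0.59 to 1.03.

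**Figure D5:**
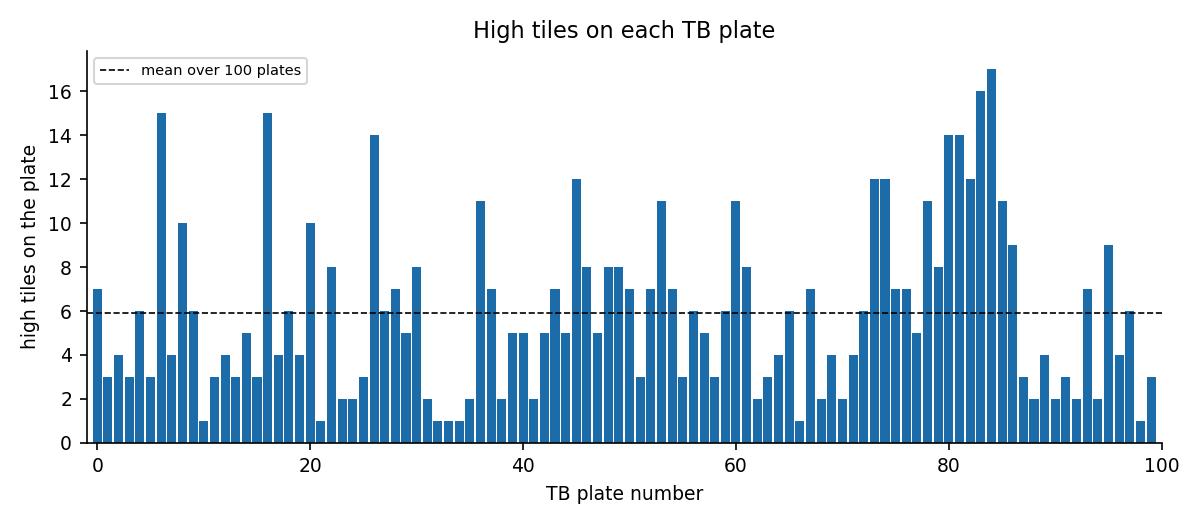
Number of high tiles on each TB plate by plate number; the dashed line is the mean, 5.93. Plates TB80 to TB84 hold 12 to 17 each, and TB32, TB33 and TB34 hold 1 each.

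Within a plate, the rows were alike and the columns less so. Members made up between 5.45% of the tiles (row G) and 6.89% (row H) by row, and between 4.82% (column 6) and 8.59% (column 1) by column. Odd columns held 339 members of 4744 tiles (7.15%) and even columns 254 of 4712 (5.39%). In single replicates, the share of TB tiles above the limit in odd against even columns was 11.4% and 9.87%, 15.6% and 12.6%, 14.1% and 12.0%, and 14.5% and 10.0%, so odd columns were higher in 4 of 4 replicates, by 2.75 ± 1.30 percentage points. The median level of all TB tiles was higher in odd columns as well, by the most in replicate 4, at 0.56 against 0.41. On TA plates odd columns had fewer tiles above the limit in each replicate, and 3.04% against 3.70% in all 4 together. On TC plates they had more, 2.94% against 1.45%. This split was looked for after the shares by column were seen, and its source was not tested.

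High tiles were more frequent on TB plates than on the other large plate sets, while the runs had about the same mean length. The share of tiles above the limit in a replicate was 12.5% ± 1.48 on TB plates, 6.92% ± 1.38 on TA plates and 5.06% ± 1.23 on TC plates (SD, n = 4). TB exceeded TA by 5.61 ± 0.68 and TC by 7.47 ± 1.45 percentage points, in 4 of 4 replicates each. The limit is the one that chose the members, so these shares are given as a description. Above the limit in all 4 replicates were 593 TB, 305 TA and 52 TC tiles, 6.27%, 3.37% and 2.20%. The plate sets also differed as a whole. The median of all TB tiles was 0.45 to 0.50 in the 4 replicates. On TA plates the medians of odd and of even columns lay between -0.54 and -0.44, and on TC plates between -0.79 and -0.72. The limit was thus farther above the typical TA or TC tile than above the typical TB tile. The shares of high tiles rest on 1 centring for the whole array. Centred on the mode, TB exceeded TA by 0.21 percentage points.

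The mean run length was 1.24 wells on TB, 1.22 on TA and 1.13 on TC plates, and single wells made up 80.3%, 82.9% and 89.1% of the runs. Wells beside a run had a median of 1.06 ± 0.07 on TB and 0.98 ± 0.06 on TA plates. TB was higher by 0.08 ± 0.02 in 4 of 4 replicates, with an exact p of 0.125. On TC plates they had 1.07 ± 0.13, and TB minus TC was -0.01 ± 0.13, with 2 replicates either way and an exact p of 1. Each of these flanks was measured beside tiles chosen by the same limit.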

How the data were processed

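ChIP and input DNA of 4 replicates were compared on 8 two-colour arrays, with the dyes exchanged within a replicate. The authors deposited 1 log ratio of IP and input per tile and array, taken here as log2. Of the values under 0.01 in size, 88.3% to 96.3% are whole multiples (within 0.01) of the floating-point step of numbers from 8 to 16. That step is set by the size of the subtracted logs, so another base is not excluded. The fold values rest on log2. Per the labels' protocols the DNA was amplified and labelled directly. The sources used here do not give scanning, background correction or normalization. Both columns of a dye swap were equal in all rows and were used as 1 replicate.

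The table has 21800 rows. Of the 21761 with a plate and well name, 21285 had values. On TB plates 144 wells were blank. Each replicate was centred on its median (-0.96, -0.33, -0.71 and -0.38 as deposited), with no loess or quantile step. A run is a stretch of members in consecutive wells, which a blank well ends. Flanking wells were grouped by the distance to the nearest run. Tiles were tested against 0 and between the pairs of replicates that share a number in the array titles with limma 3.58.1 in R 4.3.3 (lmFit, eBayes, two-sided, Benjamini-Hochberg over all tiles, threshold 0.05), and replicate values with exact sign-flip permutation tests. Simulated data had 200 changed tiles among 21285, with replicates drawn independently. On them limma's test against 0 recovered 62 of 100 tiles changed 2-fold and 25 of 100 changed 1.5-fold, with 2 false calls. The replicates here are not independent, so these counts do not give the rate of false calls in these data. Python 3.11.15, numpy 2.4.6, pandas 2.3.3, scipy 1.17.1 and matplotlib 3.10.9 were used.

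Named are the 10 members with the highest mean, the 3 longest runs, the 3 tiles on either side of the limit and the plates with the most members. The members, lists and tests were chosen with earlier results of these data known. Alternatives were other centrings, quantile normalization, limits of 1 and 2, other joins and well orders, replicates 2, 3 and 4 averaged, a block on those pairs, a robust fit and each replicate left out.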

Additional observations from a re-analysis of the deposited data

Results flagged for a closer look

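Of 51 sets of 4 replicate values checked with Dixon's test, 3 had a replicate that stood apart. Chance alone flags about 1 in 20 if replicates are independent, or 2.55 of 51, so the count is near that of chance. Some of the sets share values, and the replicates are not independent. Tile TB22A07, just outside the limit, had 1.4996 in replicate 1 against 1.79, 1.82 and 1.81 in the others, and only that value kept it from being a member. The tile was listed because its lowest value fell just under the limit, which partly sets this result. The wells beside high runs on TC plates had a median of 1.26 in replicate 3 against 1.01, 1.02 and 0.99. The difference of the wells 6 before and 6 after a TB run was 0.081 in replicate 1 against -0.01, -0.01 and -0.0012 in replicates 2 to 4.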

How the results depend on the processing

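The number of members rests on the centring and the limit. Against 593 tiles (6.27%) in 478 runs, with a longest run of 4 and a median gap of 11 wells, the values as deposited gave 36 tiles (0.381%) in 36 runs, a longest run of 1 and a gap of 132. Centred on the TB median it was 116 tiles (1.23%), 106 runs, 2 and 50, and centred on the mode 37 tiles (0.391%), 36 runs, 2 and 151. A limit of 1 gave 1957 tiles (20.7%), 1098 runs, 11 and 4, and a limit of 2 gave 103 tiles (1.09%), 95 runs, 2 and 54. These follow from the construction, since in each of these centrings 0 lies above the array median, which lowers every value, and a higher limit asks for more. A mean above the limit was met by 1074 tiles (11.4%). The wells beside runs called above in limma were 422 as deposited and 388 centred on the mode, in place of 769. Before minus after a run changed sign at a limit of 1, to -0.0305; the cause was not tested. Quantile normalization gave 594 tiles, 556 of them among the 593. Without one replicate there were 625 to 705 tiles, 505 to 543 runs and gaps of 9 to 10 wells. The difference of flanking from far wells kept its sign in all 13 alternatives, between 0.35, counted down the columns, and 1.05. In each of them the choice of members set both groups of wells, so the kept sign is a description. The 16 named tiles stayed within 1 SD under quantile normalization and without any one replicate, and were lower by more than 1 SD under the 3 other centrings. The share without plates TB80 to TB84 and the split by columns were added after the data were seen. No paired analysis was possible because the design has a single group, and each ratio already sets IP against input. Signal over background is unknown.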

Other observations

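Tiles above the limit in all 4 replicates were most frequent on the single TD plate, with 12 of 95 measured tiles (12.6%) in 11 runs, and the 4 PD plates held 14 of 314 (4.46%) in 11 runs. The wells beside these runs had a median of 0.995 ± 0.131 on TD and 0.72 ± 0.12 on PD plates (SD, n = 4), over 19 wells each. The 39 rows not named by plate and well held no values.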
